A study of Drosophila melanogaster with 6 samples.

Results

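The proteasome subunit genes of Drosophila melanogaster were followed in S2R+ cells depleted of Hakai. They were chosen as the protein-coding genes whose symbol begins with Prosalpha, Prosbeta, or Rpn or Rpt and a digit, which gave 48 of the 17559 genes listed in the counts. Of these, 32 encode canonical subunits and 16 are paralogs of them, marked by an R or T in the symbol. The small lid subunit gene Sem1, whose symbol differs, is not among them. The proteasome is the protease that degrades proteins tagged with ubiquitin. Its core particle is a barrel of outer rings of alpha subunits, which form the gate, and inner rings of beta subunits, which carry the protease sites. Its regulatory particle holds a base, in which the Rpt ATPases unfold the substrate and Rpn1, Rpn2, Rpn10 and Rpn13 sit beside them, and a lid of further Rpn subunits with the deubiquitinase Rpn11. In flies, several subunits have paralogs that are known from the testis.

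S2R+ is a Drosophila cell line of embryonic origin. Hakai, a RING-type ubiquitin ligase that is part of the m6A mRNA methylation machinery, was depleted by RNAi. In S2R+ cells, the study found no ubiquitination site reproducibly lowered by this depletion. It proposes that Hakai is not active as a ligase in these cells, or that a stimulus or a deeper analysis was needed. Poly(A) RNA was sequenced from 3 libraries of Hakai KD cells, which received dsRNA against Hakai, and from 3 libraries of control KD cells, treated with dsRNA against LacZ, a gene of bacteria that flies lack. The labels give 10 ug of dsRNA and 3 treatments over 6 days in both groups, which thus share the exposure to dsRNA. Both groups come from 1 cell line. In a bulk library, fewer cells that express a gene and less RNA per cell cannot be told apart.

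The libraries held between 16041353 and 17288912 counts. Control KD replicate 1 stood apart from its group: a chi-square test of counts over genes gave 12.1 and 15.6 per degree of freedom between it and the other control KD libraries, beside 9.90 to 11.5 between the Hakai KD libraries and those same controls. Results are therefore also given without it for the proteasome genes as a set and for a number of single genes, some of them at the end. Hakai had 68.1, 72.6 and 77.8 normalized counts (counts scaled to a common effective library size) in Hakai KD, against 296, 329 and 298 in control KD. This is a log2 fold change of -2.08 (SE 0.094, adjusted p = 1.82e-07), or 23.7% of the control level. Adjusted p-values here and below are from the quasi-likelihood test of edgeR over the 7811 genes that passed the filter on low counts, with a threshold of 0.05. Of these genes 15.3% passed, 7.58% as higher and 7.72% as lower upon Hakai KD, with a median log2 fold change of 0.21 in size. S2R+ cells are known to carry hemocyte markers. Of the 8 listed, 7 were tested and 3 rose (Hml, Pxn and He, the last with only 17 to 38 counts per library). The others tested, eater, srp, Col4a1 and vkg, did not pass, with log2 fold changes of -0.08, -0.04, 0.06 and 0.09. NimC1 had only 2 to 6 counts per library. The summed level of the 8 was 8025 to 8369.7 normalized counts in Hakai KD and 7527 to 8079.7 in control KD, mostly from srp and Pxn. The frizzled receptor gene fz, which marks S2R+ against S2 cells, was present in both groups and rose upon Hakai KD, with 586 to 614 normalized counts in Hakai KD and 506 to 523 in control KD. Muscle and fat body markers summed to below 10 normalized counts in each library. Neuron markers summed to 332 to 481 in Hakai KD and 420 to 478 in control KD, nearly all from elav. Germline markers summed to 3688 to 3730.1 in Hakai KD and 3774 to 4073 in control KD, mostly from aub. Genes of the testis transcription program summed to 791 to 865 in Hakai KD and 765 to 856 in control KD. The genes mia and topi made up nearly all of this sum. Of the other testis genes, aly and can had at most 1 count per library. The genes sa, nht, comr and dj were at 0 in all 6 libraries. None of the neuron, germline or testis genes tested passed the threshold. The part of cell makeup in the results was not tested.

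Upon Hakai KD 4 proteasome genes rose and 2 fell, out of 33 that could be tested. The risers were Prosalpha3, the base subunit genes Rpn1 and Rpn2, and the paralog Rpt6R. The genes that fell were Prosalpha6 and Prosalpha7. The share of 18.2% lies near the 15.3% among all genes tested. The changes of the 5 canonical genes were small, between -13.0% and 11.9%, and the paralog rose by 22.2%. The median log2 fold change over the 33 genes was 0.04, beside 0.00058 over all genes tested, and the median size of the change was 0.06 beside 0.08. Estimates lay above 0 for 26 of 33 genes, or 78.8%, beside 50.2% of all genes tested and 56.1% of the 1100 genes tested at or above the level of the lowest canonical subunit. DESeq2 called these same 6 genes, where 10.2% of the genes it tested passed. The counts depended on single libraries. They were 1 higher and 1 lower without control KD replicate 2, where Prosalpha3 and Prosalpha6 remained, 7 higher and 1 lower without control KD replicate 3, and 5 higher and 1 lower without Hakai KD replicate 1. Without control KD replicate 1, which stood apart, the same 6 genes passed, but the median log2 fold change was 0.02.

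**Figure D1:**
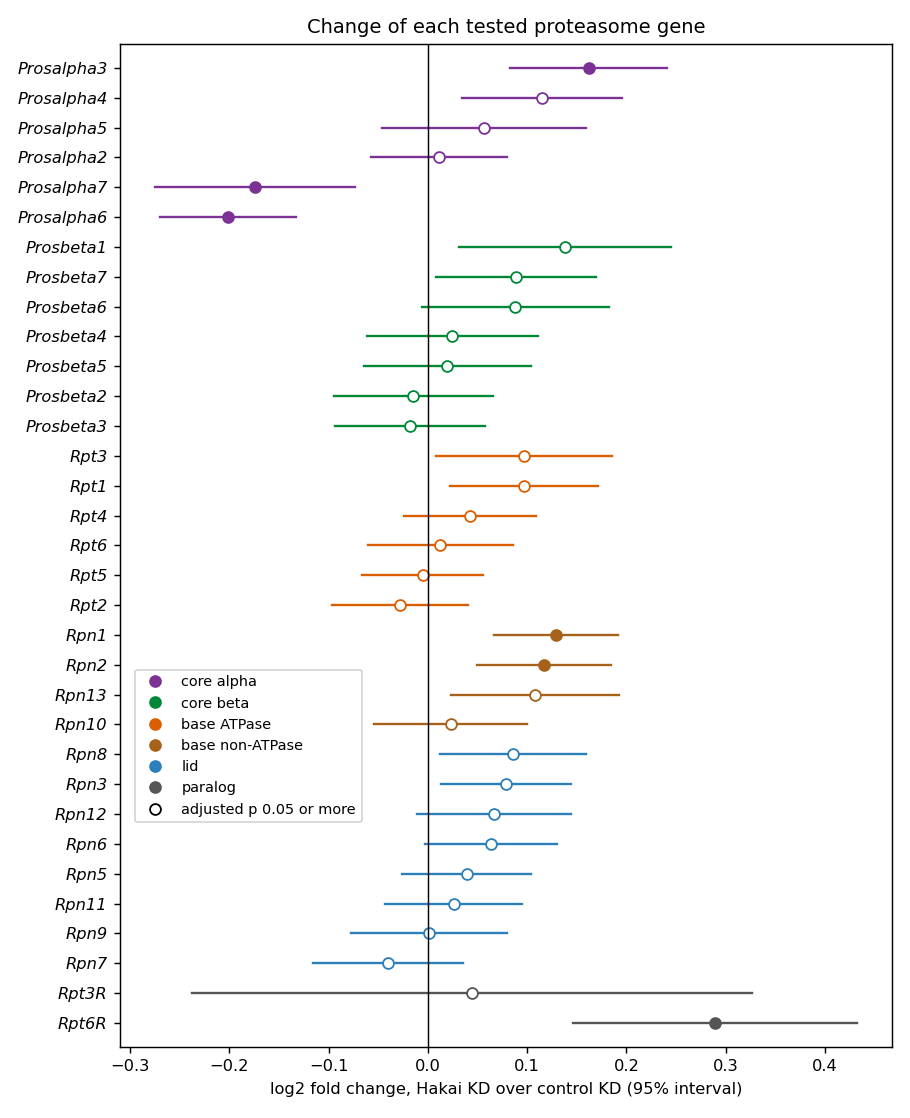
Log2 fold change of each of the 33 tested proteasome genes, Hakai KD over control KD (x axis), with its 95% interval as a line. Colours mark the part of the complex and filled points an adjusted p under 0.05: Prosalpha6 and Prosalpha7 lie furthest to the left, and Rpt6R furthest to the right.

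The alpha ring held changes in both directions. Prosalpha6 (FBgn0250843, chromosome 2L, 10221351 to 10222546, plus strand) encodes 1 of the alpha subunits. It had 3767, 3888 and 3848 normalized counts in Hakai KD, against 4279, 4469 and 4475 in control KD. Each Hakai KD library was below each control KD library. The means were 3834 ± 61.7 in Hakai KD and 4408 ± 111 in control KD (SD, n = 3 each), a log2 fold change of -0.20 (SE 0.031, adjusted p = 0.00157). This call held in the 16 other analyses run, with log2 fold changes of -0.24 to -0.19. Where groups of 3 do not overlap, the exact two-sided permutation test of a single gene gives p = 0.1, the smallest it can give.

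Prosalpha7 (FBgn0023175, chromosome 2R, 9846636 to 9847836, minus strand), which encodes another alpha subunit, also fell. It had 2099, 2249 and 2194 normalized counts in Hakai KD, against 2336, 2414 and 2632 in control KD. The groups did not overlap, and the nearest libraries were Hakai KD replicate 2 and control KD replicate 1. The log2 fold change was -0.17 (SE 0.046, adjusted p = 0.0256), or -11.4%. It missed the threshold without Hakai KD replicate 1 (-0.15, adjusted p = 0.098), without control KD replicate 2 (-0.19, adjusted p = 0.066) and without control KD replicate 3 (-0.12, adjusted p = 0.073).

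Prosalpha3 moved the other way. In yeast, the tail of this subunit helps to close the gate of the core particle. The gene (FBgn0261394, chromosome 2R, 20994900 to 20996118, plus strand) had 3261, 3216 and 3352 normalized counts in Hakai KD, against 2785, 3025 and 2976 in control KD. Again no library of one group reached into the other. The means were 3277 ± 68.9 in Hakai KD and 2929 ± 127 in control KD (SD, n = 3 each), and the log2 fold change was 0.16 (SE 0.036, adjusted p = 0.0116). This call also held in the 16 other analyses, at 0.13 to 0.19, with the lowest value without control KD replicate 1 (adjusted p = 0.03), the lowest control.

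**Figure D2:**
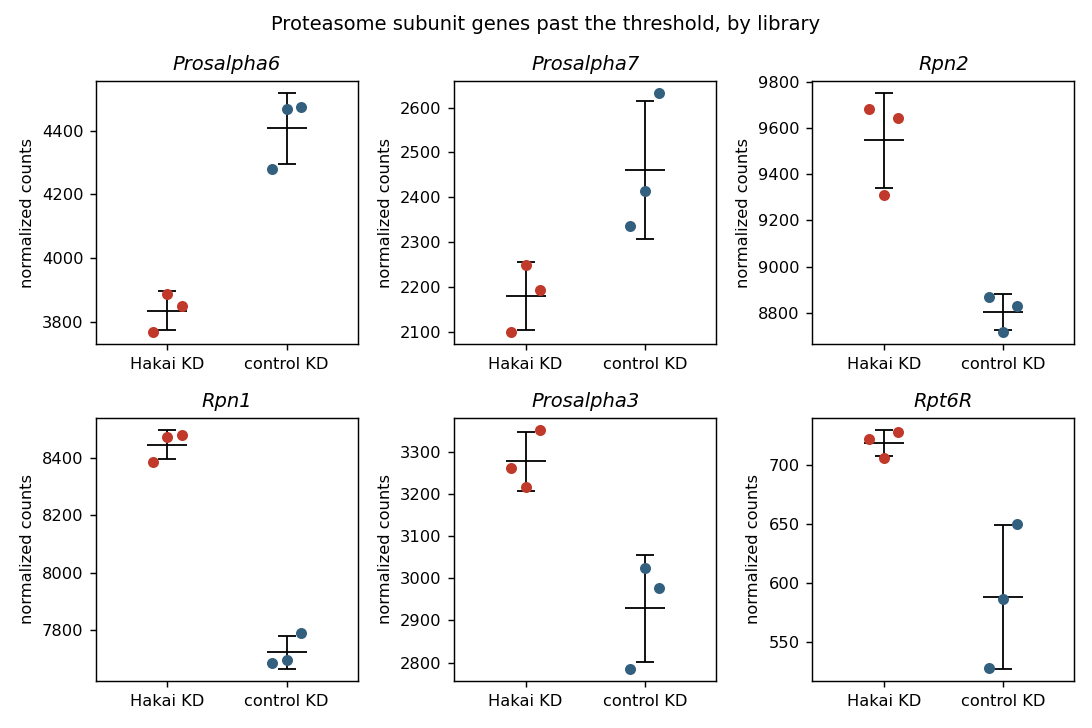
Normalized counts (y axis, scaled per gene and not starting at 0) of the 6 proteasome genes past the threshold, with Hakai KD libraries to the left of control KD libraries. Points are single libraries, long bars the mean and short bars the SD of 3 libraries. The Hakai KD points lie below the control KD points for Prosalpha6 and Prosalpha7, and above them for Rpn1, Rpn2, Prosalpha3 and Rpt6R.

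The other alpha genes did not pass the threshold. Prosalpha4 came closest, with 3323, 3281 and 3501 normalized counts in Hakai KD, against 2989, 3125 and 3215 in control KD. Its groups did not overlap (log2 fold change 0.12, SE 0.037, adjusted p = 0.0551). The groups overlapped for Prosalpha2 and Prosalpha5. Because both directions occur within the ring, the balance of its transcripts was described as well. Each gene's counts per kb of exon were divided by the sum over the 6 alpha genes with counts in the same library, a share that needs no scaling between libraries. Such shares sum to 100%, so that a fall of one raises the others.

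Prosalpha6 made up 18.1%, 18.7% and 18.0% of the alpha transcripts in Hakai KD, against 21.1%, 21.1% and 20.6% in control KD. Prosalpha7 made up 11.4 ± 0.409% in Hakai KD and 12.8 ± 0.407% in control KD, and Prosalpha3 17.2 ± 0.143% in Hakai KD and 15.3 ± 0.358% in control KD (SD, n = 3 each). The shares of 5 of the 6 genes did not overlap between the groups, and that of Prosalpha2 did. Shares computed in the same way did not overlap for 3 of 7 beta genes and 3 of 8 lid genes. In the base, they did not overlap for 3 of 6 ATPase genes and 2 of 4 non-ATPase genes. Shares without overlap were thus not confined to the alpha ring. In normalized counts, another measure, 34.9% of all genes tested did not overlap, and no such background is given for shares. The share of Prosalpha6 exceeded that of Prosalpha3 by 0.76 to 1.69 percentage points in the Hakai KD libraries and by 5.39 to 6.00 in the control KD libraries. The sum over the alpha genes hardly moved, with 1168, 1169 and 1200.3 CPM (counts scaled to a common library total) in Hakai KD and 1140.1, 1193 and 1225 in control KD.

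**Figure D3:**
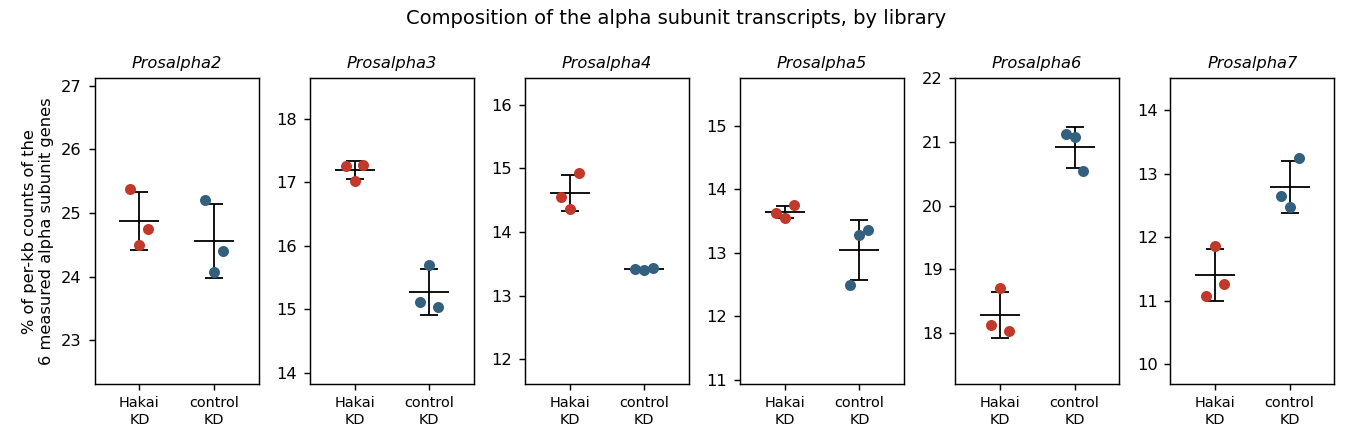
Share of each alpha subunit gene in the counts per kb of exon of the 6 measured alpha genes (y axis, %, not starting at 0), with Hakai KD to the left of control KD. Points are libraries, with mean and SD (n = 3 each). Prosalpha6 and Prosalpha7 are lower and Prosalpha3, Prosalpha4 and Prosalpha5 higher in Hakai KD, and Prosalpha2 overlaps.

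No value could be given for the seventh alpha gene. Prosalpha1 (FBgn0263121, chromosome 2R, 7827303 to 7828678, minus strand) is listed at 0 counts in all 6 libraries, as is its paralog Prosalpha1R (FBgn0050382, chromosome 2R, 7830413 to 7831771, minus strand). The genes lie 1734 bases apart on the same strand. Both have 4 exons, with coding exons of 76, 177 and 479 bases and proteins of 244 residues. How the counting treated reads that map to several places is not given in the sources used here, and the level of Prosalpha1 cannot be read from these counts. Its neighbour phr, which overlaps its end by 17 bases on the other strand, had 1253 to 1414 counts in Hakai KD and 1242 to 1440 in control KD.

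None of the 7 beta genes passed the threshold. The 3 protease sites are carried by Prosbeta1 (caspase-like), Prosbeta2 (trypsin-like) and Prosbeta5 (chymotrypsin-like). Prosbeta1 had the highest estimate of the canonical genes that were not called, with 2167, 2290 and 2429 normalized counts in Hakai KD, against 1980, 2078 and 2201 in control KD. Its groups overlapped by a single pair, Hakai KD replicate 1 and control KD replicate 3 (log2 fold change 0.14, SE 0.049, adjusted p = 0.0806). Prosbeta2 had 1980, 1916 and 1954 normalized counts in Hakai KD, against 1975, 1898 and 2038 in control KD, and Prosbeta5 had 5473, 5449 and 5660 in Hakai KD, against 5150.2, 5569 and 5639 in control KD. Both genes overlapped widely. The 95% intervals of the log2 fold change were -0.09 to 0.07 for Prosbeta2 and -0.06 to 0.10 for Prosbeta5, which leaves room for small changes in either direction. The estimates of the noncatalytic beta genes Prosbeta3, Prosbeta4, Prosbeta6 and Prosbeta7 ran between -0.02 and 0.09.

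Among the 6 ATPase genes of the base, none passed the threshold either, and their median log2 fold change was 0.03. Rpt1 had 9180.3, 9521 and 9573 normalized counts in Hakai KD, against 8649, 8669 and 9122 in control KD. These values did not overlap, but the test missed the threshold (log2 fold change 0.10, SE 0.034, adjusted p = 0.0786). The other ATPase genes overlapped between the groups.

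Among the parts made of canonical genes, the non-ATPase base had the highest median, 0.11 over 4 genes, and 2 of them rose. Rpn1 (FBgn0028695, chromosome 3L, 19915051 to 19918160, plus strand) encodes the large subunit that docks shuttle factors carrying ubiquitinated proteins. It had 8386, 8471 and 8479 normalized counts in Hakai KD, against 7686, 7695 and 7791 in control KD. The gap between the groups was larger than the spread within them. Its log2 fold change was 0.13 (SE 0.029, adjusted p = 0.0115), or 9.34%. The call was lost when libraries were scaled by library size alone (0.09, adjusted p = 0.057), and without Hakai KD replicate 2 (adjusted p = 0.053) or control KD replicate 2 (adjusted p = 0.055).

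Rpn2 (FBgn0028692, chromosome 3R, 29153524 to 29157255, plus strand) encodes the scaffold that anchors Rpn13. It had 9685, 9311 and 9645 normalized counts in Hakai KD, against 8868, 8716 and 8828 in control KD. No overlap between the groups was seen, and the log2 fold change was 0.12 (SE 0.031, adjusted p = 0.0248), or 8.44%. Of the 6 calls it was the one lost most often, in 5 of the 16 other analyses. It missed the threshold by library size alone (0.08, adjusted p = 0.12), by the likelihood ratio test of edgeR (adjusted p = 0.067) and without Hakai KD replicate 1, Hakai KD replicate 3 or control KD replicate 2 (adjusted p = 0.067, 0.085 and 0.1).

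The ubiquitin receptor genes Rpn13 and Rpn10 did not pass. Rpn13 had a log2 fold change of 0.11 with groups that did not overlap (SE 0.038, adjusted p = 0.0822), and the groups of Rpn10 overlapped. Summed over the 4 genes, the non-ATPase base held 1352, 1346 and 1377 CPM in Hakai KD, against 1255, 1253 and 1268 in control KD, with no overlap. Most of this sum came from the called genes Rpn1 and Rpn2. As a share of all counts, without scaling, the sums of the non-ATPase base were 0.134%, 0.132% and 0.136% in Hakai KD and 0.129%, 0.126% and 0.127% in control KD. The lid sums did not overlap in CPM either, at 1720.5 to 1735.3 in Hakai KD and 1640.6 to 1718.7 in control KD. As a share of all counts the lid overlapped, at 0.1691% to 0.1718% in Hakai KD and 0.1681% to 0.1727% in control KD. The sum over all 48 genes overlapped between the groups, at 0.757% to 0.776% of counts in Hakai KD and 0.747% to 0.771% in control KD.

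None of the 8 lid genes passed the threshold, and their median log2 fold change was 0.05. For Rpn11, the deubiquitinase that removes ubiquitin chains from substrates, the estimate was 0.03, with an interval of -0.04 to 0.10. It had 2447, 2449 and 2534 normalized counts in Hakai KD, against 2393, 2427 and 2476 in control KD, which overlap. Rpn3, Rpn6 and Rpn8, the partner of Rpn11, were higher in each Hakai KD library than in each control KD library, and missed the threshold. Rpn7 had the lowest estimate of the canonical genes that were not called (-0.04, interval -0.12 to 0.04).

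Across all 33 genes tested, 13 did not overlap between the groups, 11 of them higher and 2 lower in Hakai KD. This is 39.4%, beside 34.9% of all genes tested. For the 26 canonical genes that were not called, the 95% intervals reached from -7.73% to 18.5%. Of these intervals, 8 excluded 0 before adjustment. No share over all genes is set beside this count, which is therefore not read as a shift. The precision behind these intervals came from 1739 to 9700 counts per gene and library over the 31 canonical genes tested. Their median coefficient of variation was 2.1% in Hakai KD and 3.03% in control KD. Over the 31 canonical genes, the log2 fold change showed little relation to exon length (Pearson r = 0.263, Spearman rho = 0.18), to level (r = -0.192, rho = -0.117) or to the number of exons (r = -0.0307, rho = -0.00896). These are descriptions across genes that share their libraries.

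The canonical subunit genes tested lay above most genes in level. In CPM per kb of exon, their group means ran between 81.8 and 373 in Hakai KD and between 75.9 and 349 in control KD, a 4.56-fold and a 4.59-fold range. Of the 7644 genes tested that have an exon length, 85.6% lay below the lowest canonical subunit in control KD, and the median of these genes was 20.5. Rpt1 was highest, with 363, 377 and 379 in Hakai KD, against 342, 343 and 361 in control KD. Rpt6 had 345, 346 and 361 in Hakai KD, against 338, 348 and 356 in control KD. Within the same library, Rpt1 was above Rpt6 in each Hakai KD library and in control KD replicates 1 and 3, but below it in control KD replicate 2. Neither gene passed the threshold between the groups (adjusted p = 0.0786 for Rpt1 and 0.84 for Rpt6).

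Prosalpha2 came next, with 296, 285 and 296 in Hakai KD, against 286, 286 and 298 in control KD. Rpn13 was the lowest canonical subunit gene, with 77.9, 82.8 and 84.7 in Hakai KD, against 74.7, 75.2 and 77.8 in control KD. Medians by part of the complex ran from 133 (lid) to 187 (alpha) in Hakai KD and from 126 (non-ATPase base) to 179 (ATPase base) in control KD. The ratio of the highest to the lowest gene of a part was between 1.92 (alpha) and 2.93 (lid) in control KD. Of the 1100 genes tested at or above the lowest canonical level, 20.3% passed the threshold, and their median log2 fold change was 0.01.

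**Figure D4:**
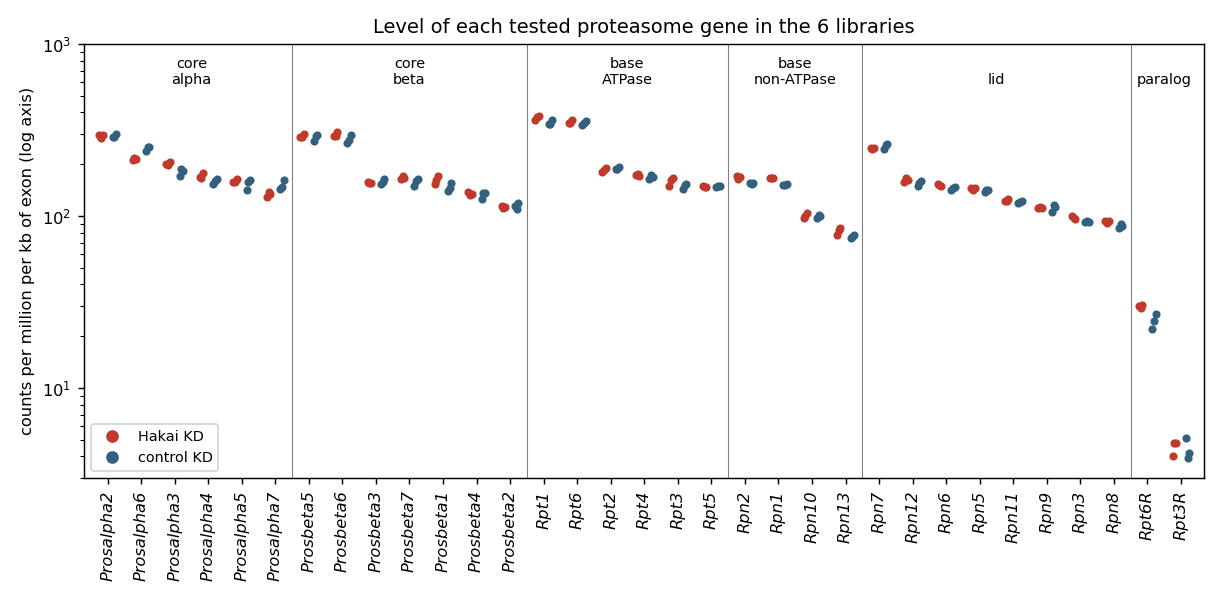
Level of each of the 33 tested proteasome genes in CPM per kb of exon (y axis, log scale), with Hakai KD points to the left of control KD points, 1 point per library, ordered within each part of the complex. Canonical genes lie between 74.7 and 379, Rpt6R between 21.9 and 30.2, and Rpt3R between 3.89 and 5.09.

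Most of the paralogs had too few counts to be tested. Of the 16, 9 were at 0 in all 6 libraries: Prosalpha1R, Prosalpha3T, Prosalpha4T1, Prosalpha4T2, Prosbeta4R1, Prosbeta4R2, Prosbeta5R1, Prosbeta5R2 and Rpn13R. A count of 0 allows up to 3 counts, or 0.174 to 0.187 CPM in these libraries, a limit that covers counting error only. It does not apply to Prosalpha1R, whose count, like that of Prosalpha1, cannot be read. Summed over the 6 libraries, Prosbeta2R2 had 19 counts, Prosalpha6T 12, Rpt4R 2, and Prosbeta2R1 and Rpn12R 1 each. Of the 16, 10 lie on another chromosome arm than their canonical gene and 6 have a single exon. The copies Prosbeta4R1 and Prosbeta4R2 lie 1467 bases apart on chromosome 2L.

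The ATPase paralogs Rpt6R and Rpt3R were tested, and Rpt6R rose. Rpt6R (FBgn0039788, chromosome 3R, 30582198 to 30583697, minus strand) encodes a protein of 399 residues beside the 405 of Rpt6, an X-linked gene. It had 722, 706 and 728 normalized counts in Hakai KD, against 528, 587 and 650 in control KD. The Hakai KD libraries lay close together and above the more scattered control KD libraries. The means were 718 ± 11.3 in Hakai KD and 588 ± 60.9 in control KD (SD, n = 3 each), a log2 fold change of 0.29 (SE 0.065, adjusted p = 0.0124). Without control KD replicate 2 the estimate was the same but missed the threshold (0.29, adjusted p = 0.052). Without control KD replicate 1, the lowest library, it was 0.22 (adjusted p = 0.03).

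Per kb of exon, Rpt6R stood at 8.68%, 8.46% and 8.37% of Rpt6 in Hakai KD, against 6.48%, 6.99% and 7.58% in control KD. This ratio was higher in each Hakai KD library than in each control KD library, while Rpt6 itself overlapped between the groups. How reads shared by paralogs were counted is not given in the sources used here, and sequence identity was not computed here. Rpt3R had 97.6, 116 and 116 normalized counts in Hakai KD, against 123, 94.1 and 101 in control KD. Its groups overlapped, with a log2 fold change of 0.04 and a wide interval of -0.24 to 0.33. It stood at 2.84 ± 0.143% of Rpt3 in Hakai KD and 2.96 ± 0.519% in control KD (SD, n = 3 each).

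None of the 6 genes past the threshold shares exon bases with another annotated gene. Of the 33 tested, 13 do, each with a gene on the opposite strand and over at most 182 bases, or 13.0% of the exons (Rpt6 with CG1801).

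Genes that build, assist or control the proteasome were described beside it. None of the 11 genes listed as assembly and accessory passed the threshold, with a median log2 fold change of 0.02. This list holds the lid subunit gene Sem1, which the choice by symbol left out (log2 fold change -0.03, adjusted p = 0.728). Pomp, the chaperone that matures the core particle, had 1437, 1525 and 1637 normalized counts in Hakai KD, against 1184, 1423 and 1429 in control KD. Its values did not overlap (log2 fold change 0.19, SE 0.070, adjusted p = 0.0932). Without control KD replicate 1, by far its lowest library, the estimate was 0.10 (adjusted p = 0.24). Of 5 genes of the pathway of cnc, whose mammalian NRF counterparts switch on proteasome genes when the protease is impaired, cnc itself rose. It had 2044, 2074 and 1913 normalized counts in Hakai KD, against 1804, 1712 and 1737 in control KD, with no overlap. The log2 fold change was 0.20 (SE 0.040, adjusted p = 0.00693), and the call held in the 16 other analyses. The other 4 genes, maf-S, Keap1, rngo and Pngl, did not pass. With 7.58% of all genes tested called as higher, 1 gene of 5 is not read as a result about the pathway.

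Of 11 tested genes for ubiquitin, its activating enzyme, the segregase partners and the shuttle factors, 1 rose. Of all genes tested 7.58% rose, so that this count is not read as a result about the list. This was the polyubiquitin gene Ubi-p5E, with 4266, 4131 and 4252 normalized counts in Hakai KD, against 3802, 3885 and 3937 in control KD. The groups did not overlap, and the log2 fold change was 0.12 (SE 0.030, adjusted p = 0.0183). The call was lost by library size alone (0.09, adjusted p = 0.08) and without Hakai KD replicate 1, Hakai KD replicate 3 or control KD replicate 2 (adjusted p = 0.062, 0.064 and 0.066). Polyubiquitin genes consist of near-identical repeats, so that the count of Ubi-p5E is uncertain.

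Other large complexes gave different counts under the same test, set side by side without a test of the difference. Of all genes tested 15.3% passed, 7.58% as higher and 7.72% as lower upon Hakai KD. Of the 1100 genes at or above the level of the lowest canonical subunit, 20.3% passed. Of 79 tested cytoplasmic ribosomal protein genes, 21 rose and 0 fell (26.6%), with a median log2 fold change of 0.08. None of the 7 CCT chaperonin genes passed, with a median of 0.04. Of 14 tested vacuolar ATPase genes, 0 rose and 4 fell (28.6%), with a median of -0.07.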

How the data were processed

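Poly(A) RNA of 3 Hakai KD and 3 control KD libraries was sequenced by the authors as single reads of 85 bp from a directional kit, mapped with STAR to BDGP6 (Ensembl release 90) and counted per gene with featureCounts (versions 2.5.1b and 1.5.1 in the submitters' processing notes). The deposited values are raw counts, neither normalized nor pooled. Neither the strand setting nor the handling of multi-mapped reads is given in the sources used here. Symbols, positions and exon lengths came from Ensembl release 115 (BDGP6.54, the same assembly), which named 17253 of 17559 identifiers. No sequence is shown.

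The comparison was run in edgeR 4.0.16 under R 4.3.3 (filterByExpr with minimum count 10 and minimum total 15, TMM scaling, quasi-likelihood test without covariates, Benjamini-Hochberg adjustment over all genes tested, threshold 0.05). Standard errors were taken as the size of the log2 fold change over the root of its F statistic. Levels in CPM per kb used the union of exons. DESeq2 1.42.0, limma 3.58.1 and the other alternatives are given at the end. The script was tested on simulated data.

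The members and gene lists were chosen with earlier results of these data known. Values per library are given for members past the threshold, for the 5 with the largest change, for the 3 with the highest and the 3 with the lowest levels among those tested, for tested paralogs, for listed genes past the threshold and for Hakai. Further members and Pomp were added after their values were seen. The labels give 10 ug of dsRNA, whereas the study's methods give another amount. The study calls the libraries biological replicates, and neither it nor the labels say whether they were separate cultures, so that p-values measure the spread between these libraries. Within groups, a chi-square test of counts gave 2.34 to 15.6 per degree of freedom, with the highest values for control KD replicate 1, and no pair differed by less than the sampling noise. The identifiers of TER94, wupA and vas were not matched, and these genes were not analysed here.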

Additional observations from a re-analysis of the deposited data

How the results depend on the processing

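The calls of Hakai, Prosalpha3, Prosalpha6 and cnc held in all 16 alternatives, whose adjusted p-values reached 0.016 for Prosalpha6, 0.039 for Prosalpha3 and 0.041 for cnc by the tools run. With library size alone, the median log2 fold change of the proteasome genes tested was 0.0091 in place of 0.045, the median of all genes was -0.03, and 2 proteasome genes rose in place of 4. After the loess correction for gene length 7 rose. Leaving out 1 library in turn gave 1 to 7 higher genes, 1 to 2 lower genes and a median of 0.02 to 0.06. Leaving out 1 library also turned the sign of Prosbeta2 (-0.04 to 0.0103, positive without control KD replicate 3), Prosbeta5 (-0.0203 to 0.0443, negative without control KD replicate 1) and Rpt3R (-0.037 to 0.167, negative without control KD replicate 2). With library size alone, Prosbeta5 (-0.015) and Rpn11 (-0.00899) turned negative. None of these passed the threshold. Prosalpha4, Rpt1 and Rpn13 passed with the loess correction, and Prosbeta1 and Pomp without a filter on low counts. Prosalpha4, Prosbeta1 and Rpt1 passed without control KD replicate 3, and Rpn13 and Rpt3 without Hakai KD replicate 1. Without control KD replicate 1, the calls of Prosalpha6 (log2 fold change -0.223), Prosalpha7 (-0.21), Rpn1 (0.125) and Ubi-p5E (0.108) held. Prosalpha4 (0.0869), Prosbeta1 (0.101) and Rpt1 (0.083) missed the threshold there too. The causes were not tested. Samples with the same replicate number did not deviate together (correlations of -0.08, -0.03 and -0.07), which does not show whether they were prepared together. With the replicate block, 6 proteasome genes rose and 2 fell, with Prosalpha4 and Prosbeta1 added, Pomp passed too, and 1152 genes were called in place of 1195. The 15 members that were not tested allow no statement about change, for Prosalpha1 and Prosalpha1R because their counts cannot be read and for the others because too few reads were counted.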
